A study of Mus musculus with 7 samples.

Results

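The Notch pathway was described here by 10 genes in sorted bone marrow mesenchymal stromal cells: the receptor genes Notch1, Notch2 and Notch3, the ligand genes Jag1, Jag2 and Dll1, and the target genes Hes1, Hey1, Heyl and Nrarp. They were chosen by symbol from the 53801 gene IDs of the count tables, and each symbol matched 1 ID. Donors of the cells were C57BL/6 males aged 8 weeks at the first of 35 daily intraperitoneal injections of 100 µl. In the treated group (FAPi, n = 4) the injection held an unnamed FAP inhibitor at 500 µg/kg, FAP being a serine protease on the surface of fibroblasts, and in the control group (DPBS, n = 3) it held buffered saline. The sort kept live Pdgfra+ cells of the limb bones that lacked CD45, Ter119 and Tie2, so each library mixes all stromal subtypes that carry Pdgfra. The labels tie no library to a single animal, and p-values measure the spread between these samples. Libraries followed a modified Smart-seq2 protocol, with 7000 sorted cells per sample.

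Notch receptors are membrane proteins that are cut when a Jagged or Delta-like ligand on a neighbouring cell pulls on them. The freed intracellular part joins the DNA-binding protein RBPJ and a Mastermind coactivator and switches on genes such as Hes1, Hey1 and Heyl, which encode basic helix-loop-helix repressors. In bone marrow the pathway is known for restraining osteoblast differentiation of mesenchymal progenitors, and Jagged1 on stromal cells is known as a signal to blood stem cells.

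Promoter windows of Notch2, Jag1 and Notch1 are shown because these were the receptor and ligand genes with an unadjusted p under 0.05 between the groups. Each runs from 250 bases before to 50 bases after the annotated start, 5′ to 3′ on the gene's strand, from RefSeq on GRCm38.p6. Capitals mark GC boxes, searched as GGGCGG on both strands. The Notch2 window lies at chr3:98013288-98013587 on the plus strand, that of Jag1 at chr2:137116471-137116770 on the minus strand and that of Notch1 at chr2:26503773-26504072 on the minus strand. The gene coordinates used below place Notch1 at 26457903 to 26516663, with its start at the higher end. Its RefSeq window therefore lies inside that span and not at its start.
Notch2: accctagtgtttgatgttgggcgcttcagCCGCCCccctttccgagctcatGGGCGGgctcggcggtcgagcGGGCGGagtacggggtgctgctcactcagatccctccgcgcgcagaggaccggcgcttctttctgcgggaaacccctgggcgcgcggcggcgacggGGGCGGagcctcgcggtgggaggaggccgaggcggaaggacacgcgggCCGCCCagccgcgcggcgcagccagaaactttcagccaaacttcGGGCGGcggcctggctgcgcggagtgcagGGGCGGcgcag
Jag1: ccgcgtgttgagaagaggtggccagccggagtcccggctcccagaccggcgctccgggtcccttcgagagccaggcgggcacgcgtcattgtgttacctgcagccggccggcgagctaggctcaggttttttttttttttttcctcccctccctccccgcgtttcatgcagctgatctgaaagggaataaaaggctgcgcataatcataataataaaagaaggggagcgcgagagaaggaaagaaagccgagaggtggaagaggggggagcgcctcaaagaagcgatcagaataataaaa
Notch1: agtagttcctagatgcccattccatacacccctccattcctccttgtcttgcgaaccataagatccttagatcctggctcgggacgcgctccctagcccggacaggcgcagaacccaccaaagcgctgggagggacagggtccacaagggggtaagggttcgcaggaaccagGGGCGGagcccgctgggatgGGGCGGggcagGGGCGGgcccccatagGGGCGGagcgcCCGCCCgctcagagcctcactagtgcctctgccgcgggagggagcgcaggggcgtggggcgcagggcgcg
The Notch2 window held 7 GC boxes at 73% G and C, and the Notch1 window 5 at 68.3%. The Jag1 window held 0 GC boxes at 55.7% G and C. Of 32851 windows in the table, 35.7% held a GC box, and the median content of G and C was 52.7%. Windows were found for 7 of the 10 genes. None was available for Hes1, Hey1 and Heyl, so the motif counts that follow leave out these 3 target genes. The RBPJ core letters TGGGAA, on either strand, were in 0 of the 8 windows found and in 25.6% of all windows. The N box CACNAG, the letters bound by Hes repressors, was in 5 of these 8 windows and in 42.5% of all windows.

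Total counts ranged from 7492570 to 10569690 per library, and 3 counts, taken as a floor, corresponded to 0.269 to 0.419 CPM after TMM scaling. Pdgfra was present in every library, at 317 to 365 CPM in DPBS and 382.5 to 440 CPM in FAPi libraries. These ranges did not overlap, and the log2 difference was 0.22 ± 0.21 (adjusted p = 0.836, edgeR). Of the 10 stromal markers, 1 (Pdgfra) had groups fully apart, beside 7.34% of all genes tested. Transcripts of the gates used for exclusion were low, with Ptprc (CD45) at 0.269 to 5.28 CPM and Tek (Tie2) at 0 to 1.602 CPM. The 10 stromal markers together gave 26420 to 28080 CPM in DPBS and 26040 to 30230 CPM in FAPi libraries. The 10 erythroid markers summed to 1687 to 15610 CPM in DPBS and 1564 to 3142 CPM in FAPi libraries, and all 10 had a lower estimate in FAPi mice. Neutrophil markers summed to 611 to 2622 and 184 to 615 CPM, with 9 of 9 tested members estimated lower and Ly6g at 0 in every library. The erythroid and neutrophil sums overlapped between the groups. Sums also overlapped for the endothelial (48.4 to 103 and 35.2 to 376 CPM), pericyte and smooth muscle (73.1 to 161 and 65.5 to 231 CPM), B cell (26.3 to 368.5 and 26.8 to 357 CPM), T cell (0.269 to 6.97 and 0.905 to 21.9 CPM), macrophage (8.06 to 23.8 and 8.04 to 19.96 CPM), megakaryocyte (124 to 536 and 98.7 to 191 CPM) and leukocyte lists (23.4 to 77.5 and 16.03 to 111 CPM). No marker passed the edgeR threshold, while DESeq2 called the neutrophil genes S100a8 (adjusted p = 0.0382) and Mmp8 (adjusted p = 0.0420) lower in FAPi mice. Mmp8 had 58, 134 and 25 counts in DPBS and 3, 6, 6 and 5 in FAPi libraries. It was thus tested only through the DPBS group, where it was higher, and its call and separation are partly set by the low-count filter. The groups were fully apart at 4 of the 9 tested neutrophil markers (S100a8, Ltf, Mmp8 and Retnlg), with every DPBS library above every FAPi library. Over all genes tested, 3.95% were fully apart in that direction.

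Per length, the pathway in these cells was dominated by Notch2, Hes1 and Jag1. The level per length was taken as CPM per kilobase of exon, and values in this paragraph are such levels. In DPBS mice Hes1 stood at 224 ± 3.56 (SD, n = 3), Notch2 at 207 ± 45.8 and Jag1 at 75.8 ± 15.1. In FAPi mice Notch2 stood at 405 ± 141 (SD, n = 4), Jag1 at 185 ± 96.4 and Hes1 at 110 ± 24.3. Hes1 lay above Jag1 in each of the 3 DPBS libraries and below it in each of the 4 FAPi libraries. Notch2 lay above Hes1 in 5 of 7 libraries. Notch3 came next at 36.2 ± 6.83 over all 7 libraries, followed by Heyl at 11.2 ± 4.51 and Hey1 at 3.31 ± 1.24, and each lay above the next in 7 of 7 libraries. Jag2, Notch1, Dll1 and Nrarp had means of 0.216, 0.180, 0.0308 and 0.0164. Their order is not resolved, since Jag2 exceeded Notch1 in 3 of 7 libraries and Dll1 exceeded Nrarp in 3 of 7.

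**Figure D1:**
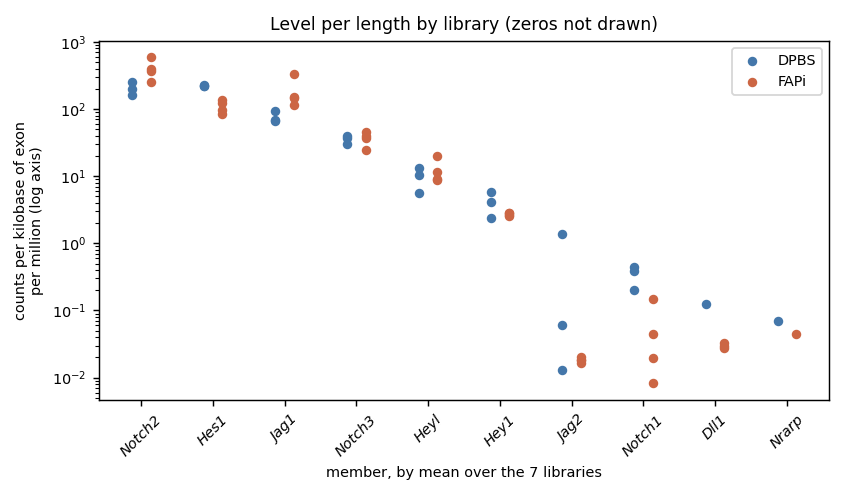
CPM per kilobase of exon (log axis) for the 10 genes, ordered by their mean over 7 libraries, with 1 point per library, blue for DPBS and orange for FAPi. The upper 3 genes, Notch2, Hes1 and Jag1, have means from 138 to 320, and the lowest 4 have means under 0.22, with zeros not drawn.

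The question of the design is how the stromal transcriptome differs after FAP inhibition. None of the 10 genes passed the edgeR quasi-likelihood test at an adjusted p under 0.05 over all genes. Over 12930 genes tested, 0% were called in either direction. DESeq2 called 1.1% of the 12267 genes to which it gave an adjusted p (0.685% higher and 0.416% lower), with 0 of the 10 among them. Of the 10, 7 passed the low-count filter and 3 (Jag2, Dll1 and Nrarp) did not. At an unadjusted p under 0.05 there were 4 of the 7, with Notch2 and Jag1 estimated higher and Hes1 and Notch1 estimated lower in FAPi mice, beside 8.14% of all genes tested (4.45% higher and 3.69% lower). Values of the DPBS and FAPi libraries were fully apart at 3 of the 7 (Jag1, Hes1 and Notch1), beside 7.34% of all genes (3.39% higher and 3.95% lower). Notch1 had 62, 60 and 30 counts in DPBS but 17, 5, 1 and 2 in FAPi libraries. It passed the low-count filter only through the DPBS group, where it was higher, so its place in both counts is partly set by the filter. The median log2 difference of the 7 was 0.04 and that of all genes 0.01. In bulk RNA of this kind, fewer cells of a type and less RNA per cell cannot be told apart.

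**Figure D2:**
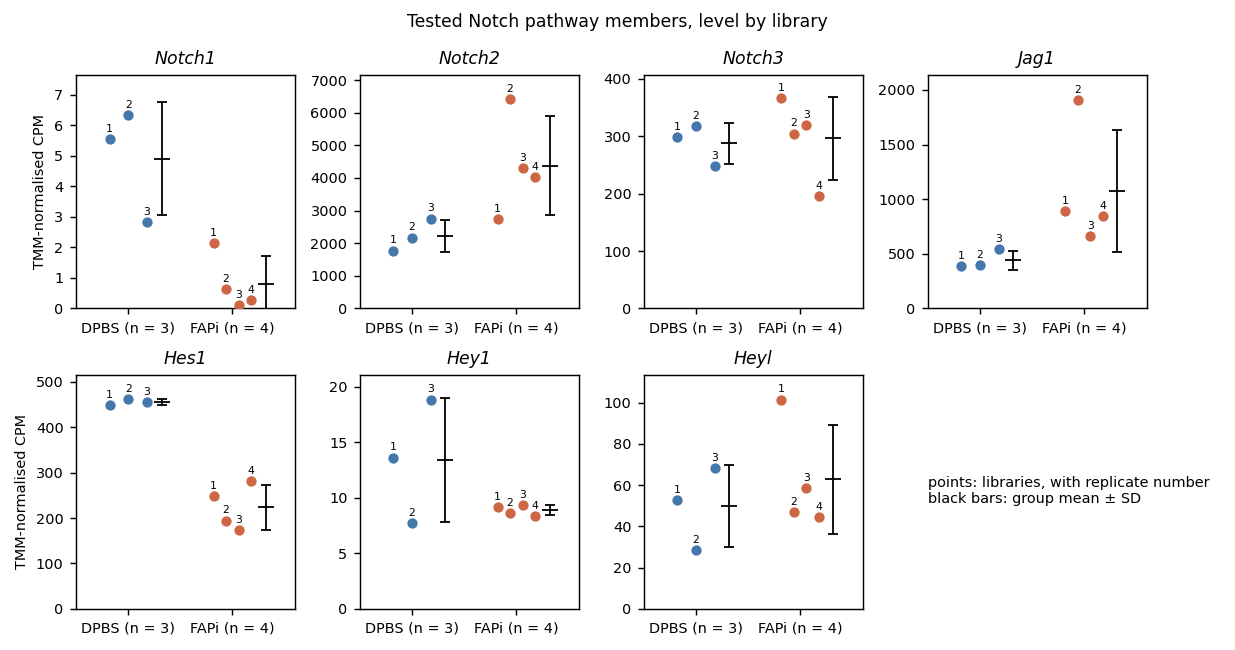
TMM-normalised CPM of the 7 tested genes in each library, on linear axes from 0, with replicate numbers beside the points and the group mean ± SD as black bars. The 3 DPBS libraries lie above the 4 FAPi libraries at Hes1 and Notch1, and below them at Jag1.

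Among receptors, Notch2 was the abundant one and had the higher estimate in FAPi mice. Notch2 (ENSMUSG00000027878.11, chromosome 3, 98013527 to 98150361, plus strand, mm10) had 1771, 2169 and 2752 CPM in DPBS replicates 1 to 3. In FAPi replicates 1 to 4 it had 2735, 6405, 4307 and 4035 CPM. The groups touched at 1 pair of libraries, with DPBS replicate 3 just above FAPi replicate 1. Means were 2231 ± 494 CPM (SD, n = 3) and 4371 ± 1520 CPM (SD, n = 4), a ratio of 1.96. The log2 difference was 0.97 ± 0.29 (SE), with an unadjusted p of 0.00703 and an adjusted p of 0.489 in edgeR, rank 182 of 12930 by p. DESeq2 gave an adjusted p of 0.258. FAPi replicate 2, the highest library for Notch2, also had the largest share of counts on Actb, 11.8% against 3.97% to 8.08% in the other 6. Without that library the log2 difference of Notch2 was 0.72. With library totals in place of TMM factors the groups no longer overlapped. Exons of Notch2 share 541 bases with Gm42820 on the same strand, which held 264 counts in all.

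Notch3, the receptor known from pericytes and vascular smooth muscle, overlapped between the groups. Its values were 298, 317 and 247 CPM in DPBS and 366, 304, 319 and 196 CPM in FAPi mice. These ranges overlap, with FAPi replicate 1 highest and FAPi replicate 4 lowest. Notch3 (ENSMUSG00000038146.7, chromosome 17, 32120820 to 32166852, minus strand) had a log2 difference of 0.04 ± 0.26 (adjusted p = 0.987, edgeR), and its sign turned with library totals (-0.13). The 2 most abundant mural cell markers were Rgs5 at 30.5 to 138 CPM and Des at 12 to 42.4 CPM. Per length, Notch3 ran from 24.2 to 45.3 CPM per kilobase of exon and Rgs5 from 6.71 to 30.3. In FAPi replicate 2 these levels were 37.6 for Notch3 and 30.3 for Rgs5. The part of mural cells in the Notch3 values was not tested. Notch3 shares exon bases with the antisense gene Gm17276, which held 78 counts in all.

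Notch1 was scarce. It had 62, 60 and 30 counts in the DPBS libraries and 17, 5, 1 and 2 counts in the FAPi libraries, or 5.55, 6.34 and 2.83 against 2.13, 0.646, 0.117 and 0.279 CPM. All 3 DPBS libraries lay above all 4 FAPi libraries, and FAPi replicates 3 and 4 were under the floor of 3 counts. Notch1 was tested only because the DPBS libraries, the group where it was higher, passed the low-count filter. The log2 difference of Notch1 (ENSMUSG00000026923.15, chromosome 2, 26457903 to 26516663, minus strand) was -2.61 ± 1.082 (unadjusted p = 0.0350, adjusted p = 0.574, edgeR). It was -3.78 without FAPi replicate 1. The unadjusted p was under 0.05 in 2 of the 7 fits that left out 1 library. The erythroid and neutrophil marker sums given above were also higher on average in the DPBS libraries, and their part in the Notch1 values was not tested. DPBS replicate 3, the lowest DPBS library for Notch1, was also the lowest DPBS library for both sums. In the FAPi group the order differed. FAPi replicate 3, the lowest for Notch1, had the highest erythroid (3142 CPM) and neutrophil (615 CPM) sums of its group. Exons of Notch1 share 1068 bases with 0610009E02Rik on the opposite strand, which held 168 counts in all libraries, 107 of them in FAPi replicate 1. How the counting treated strand is not stated, so reads of the pair cannot be told apart.

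Taking the receptors within each library, where scaling cancels, Notch2 made up 81.0%, 82.6% and 89.2% of the summed level per length of Notch1 to Notch4 in DPBS mice. In FAPi mice its share was 84.4%, 93.8%, 90.9% and 93.9%. The ranges overlap, and Notch3 supplied most of the rest, 10.7% to 18.2% in DPBS and 5.94% to 15.1% in FAPi mice. Notch4, a receptor known from endothelium, had 1.98 to 23.2 CPM in DPBS and 1.12 to 13.1 CPM in FAPi libraries. The log2 difference of Notch4 was -0.79 ± 0.97 (adjusted p = 0.891, edgeR), and 0.09 without DPBS replicate 2.

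Jag1 supplied nearly all ligand transcript and was higher in every FAPi library than in any DPBS library. Jag1 (ENSMUSG00000027276.7, chromosome 2, 137081456 to 137116644, minus strand) had 388, 394 and 543 CPM in DPBS replicates 1 to 3. In FAPi replicates 1 to 4 it had 892.5, 1905, 662 and 843.5 CPM. FAPi replicate 2 was again the highest library, and the lowest FAPi value lay above the highest DPBS value. Means were 442 ± 88.0 CPM (SD, n = 3) and 1076 ± 562 CPM (SD, n = 4), a ratio of 2.43. The log2 difference was 1.28 ± 0.36 (unadjusted p = 0.00466, adjusted p = 0.483, edgeR; adjusted p = 0.119, DESeq2), and it ranked 123 of 12930 by p. Without FAPi replicate 2 it was 0.84, and the unadjusted p was under 0.05 in each of the 7 fits that left out 1 library. Of the summed level per length of Jag1, Jag2, Dll1, Dll3 and Dll4, Jag1 held 98.4% to 99.8% in DPBS and 99.4% to 99.9% in FAPi mice.

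The remaining ligands were at or near the floor. Jag2, the second Jagged gene, had 1, 4 and 101 counts in the DPBS libraries and 1 count in each FAPi library. The DPBS mean of Jag2 therefore came from replicate 3 alone, at 9.52 CPM. Dll1, a Delta-like gene, had 0, 5 and 0 counts in DPBS and 1, 0, 1 and 1 counts in FAPi libraries. Dll4, the Delta-like ligand known from endothelium, had 0.358 to 2.01 CPM in DPBS and 0.349 to 3.21 CPM in FAPi mice, with a log2 difference of 0.67 ± 1.079 (adjusted p = 0.922, edgeR). Dll3 and Dlk1 had 0 counts in all 7 libraries.

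Among the target genes, Hes1 carried most of the transcript and was lower in every FAPi library than in any DPBS library. Hes1 (ENSMUSG00000022528.7, chromosome 16, 30064384 to 30067796, plus strand) had 449, 463 and 455 CPM in DPBS replicates 1 to 3, a nearly flat set. In FAPi replicates 1 to 4 it had 248, 194, 173 and 281 CPM. Every FAPi value lay well under the lowest DPBS value. Means were 456 ± 7.25 CPM (SD, n = 3) and 224 ± 49.5 CPM (SD, n = 4), so the DPBS mean was 2.03 times the FAPi mean. The log2 difference was -1.02 ± 0.24 (unadjusted p = 0.00143, adjusted p = 0.430, edgeR; adjusted p = 0.152, DESeq2), rank 41 of 12930 by p. Leaving out 1 library at a time gave -1.15 to -0.91, with unadjusted p from 0.00135 to 0.00550. The neutrophil genes that were fully apart between the groups had the same direction as Hes1, and the erythroid sum of the DPBS libraries, which held Hes1 within 449 to 463 CPM, ran from 1687 to 15610 CPM. DPBS replicate 3, with Hes1 at 455 CPM, had the lowest neutrophil sum of its group (611 CPM, beside a FAPi maximum of 615 CPM), S100a8 at 457 CPM above the FAPi maximum of 420 CPM, and a megakaryocyte sum of 536 CPM above the FAPi range. The part of blood cell RNA in the Hes1 values was not tested.

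At Hey1 and Heyl the groups overlapped. Hey1 (ENSMUSG00000040289.8, chromosome 3) had 13.6, 7.71 and 18.9 CPM in DPBS and 9.16, 8.66, 9.32 and 8.38 CPM in FAPi mice. DPBS replicate 2 lay below every FAPi library, and the other DPBS libraries lay above them. The log2 difference of Hey1 was -0.59 ± 0.56 (adjusted p = 0.835, edgeR), and -0.26 without DPBS replicate 3. Heyl (ENSMUSG00000032744.4, chromosome 4) had 52.8, 28.5 and 68.2 CPM in DPBS and 101, 46.8, 58.6 and 44.4 CPM in FAPi mice. FAPi replicate 1 was highest and the other values were mixed. The log2 difference of Heyl was 0.33 ± 0.43 (adjusted p = 0.897, edgeR), near 0 without FAPi replicate 1 (0.0021) and 0.63 without DPBS replicate 3. Nrarp, which encodes an ankyrin repeat protein that limits the Notch intracellular domain, had 3 counts over all 7 libraries, 2 in DPBS replicate 1 and 1 in FAPi replicate 3.

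Ratios within a library need no scaling between libraries and show how unequally the abundant receptor and target differed. Hes1 per Notch2, by level per length, was 1.34, 1.13 and 0.875 in DPBS replicates 1 to 3. It was 0.480, 0.161, 0.212 and 0.369 in FAPi replicates 1 to 4. The groups were separate, with means of 1.12 ± 0.233 (SD, n = 3) and 0.305 ± 0.146 (SD, n = 4). Heyl per Hes1 was 0.0469, 0.0245 and 0.0597 in DPBS and 0.163, 0.0959, 0.135 and 0.0629 in FAPi mice, also separate, though FAPi replicate 4 lay just above DPBS replicate 3. Jag1 per Notch2 overlapped, at 0.336 to 0.405 in DPBS and 0.285 to 0.604 in FAPi mice. These ratios were chosen after the values of their genes were seen and are given without a test.

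**Figure D3:**
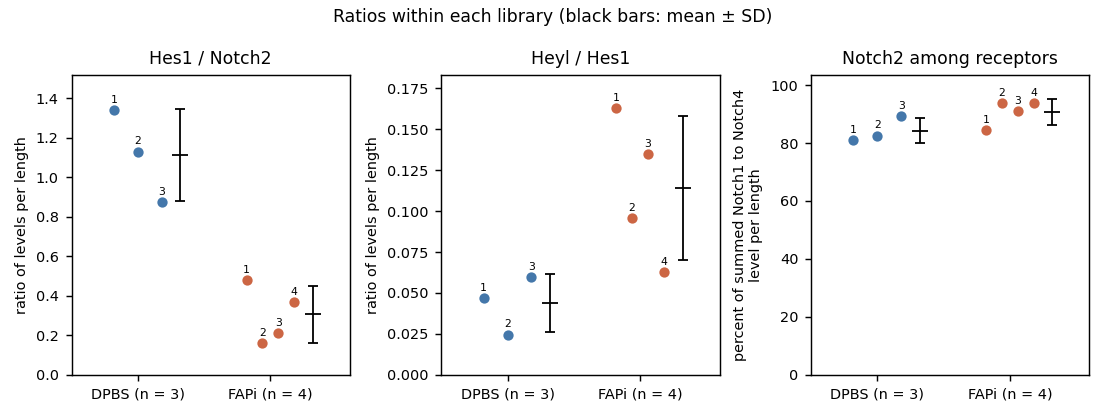
The 3 within-library measures for the 3 DPBS and 4 FAPi libraries, with replicate numbers beside the points and mean ± SD as black bars: the ratios Hes1 to Notch2 and Heyl to Hes1 of levels per length, and the percentage of Notch2 among Notch1 to Notch4. The Hes1 to Notch2 ratio is 0.875 or more in DPBS and 0.480 or less in FAPi libraries, while the Notch2 percentages overlap.

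The wider pathway was described by 67 further genes in 6 role groups, of which 51 passed the low-count filter. None passed the edgeR threshold in either direction, and DESeq2 called 0. At an unadjusted p under 0.05, 3 were higher (Adam10, Maml2 and Myc) and 1 was lower (Hes6) in FAPi mice. These 4 are 7.84% of the 51, close to the 8.14% over all genes. Groups were fully apart at 3 of the 51 (Adam10, Myc and Hes6), or 5.88%, beside 7.34% of all genes tested. Estimates were higher at 29 and lower at 22 genes, with a median log2 difference of 0.10.

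Receptor proteases were all measured, with 10 of 10 tested, 5 estimated higher and 5 lower. Adam10, the protease that makes the ligand-dependent cut in the receptor, had 194, 308.5 and 320 CPM in DPBS and 409, 717, 382 and 394 CPM in FAPi mice. The groups of Adam10 did not overlap, and FAPi replicate 2 stood highest, as it did for Notch2 and Jag1. The log2 difference was 0.80 ± 0.31 (unadjusted p = 0.0250, adjusted p = 0.547, edgeR) and 0.52 without FAPi replicate 2. Every listed subunit gene of gamma-secretase, which frees the intracellular domain, overlapped between the groups, with Psenen at 50.6 to 139 CPM in DPBS and 43.0 to 91.4 CPM in FAPi mice (log2 difference -0.51 ± 0.40, adjusted p = 0.788, edgeR). Without DPBS replicate 2 the difference of Psenen was -0.13.

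Of 14 genes of the nuclear complex and its co-repressors, 14 were tested and 9 were estimated higher. Maml2, a Mastermind coactivator, had 97.3, 186 and 111 CPM in DPBS and 175.5, 315, 401 and 137 CPM in FAPi mice. The groups overlapped, since DPBS replicate 2 lay above FAPi replicates 1 and 4. Its log2 difference was 0.97 ± 0.41 (unadjusted p = 0.0365, adjusted p = 0.574, edgeR). Rbpj, the DNA-binding protein of the complex, had 14.7 to 45.5 CPM in DPBS and 19.5 to 60.9 CPM in FAPi mice, with a log2 difference of 0.48 ± 0.51 (adjusted p = 0.862, edgeR). Rbpj lay outside the naming rule and was added after its values were seen. Spen, an RBPJ co-repressor, was at 128 CPM in FAPi replicate 4 and at 19.7 to 44.4 CPM in the other 6 libraries. The log2 difference of Spen was 0.87 ± 0.61 (adjusted p = 0.751, edgeR) and 0.06 without that library.

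The sugar-transferring enzymes that modify the receptors showed small estimates. Rfng, a Fringe enzyme, had 26.6 to 59.6 CPM in DPBS and 27.5 to 48.1 CPM in FAPi mice (log2 difference -0.09 ± 0.40). Pofut1, which adds O-fucose, differed by -0.26 ± 0.70 and Eogt by 0.19 ± 0.48, and 0 of the 5 tested enzymes had an unadjusted p under 0.05 in edgeR. Mfap5, a microfibril protein listed with the other ligands, differed by 0.23 ± 0.50. Among 13 tested genes of endocytosis and turnover, the ubiquitin ligase gene Nedd4 was the most abundant at 646 to 930 CPM in DPBS and 777 to 1030 CPM in FAPi mice. Fbxw7, whose product marks the intracellular domain for degradation, had 17.5 to 73.2 CPM in DPBS and 9.43 to 30.9 CPM in FAPi mice. The log2 difference of Fbxw7 was -1.07 ± 0.56 (adjusted p = 0.668, edgeR) and -0.41 without DPBS replicate 2. Mib1, a ligase needed for ligand activity, differed by -0.72 ± 0.51, and by -0.07 without DPBS replicate 2.

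Among other Hes, Hey and reported target genes, 6 of 13 were tested, and Hes2, Hes3, Hes5 and Helt had 0 counts in all libraries. Hes6, a Hes family member known to counteract Hes1, had 19.9, 29.9 and 29.5 CPM in DPBS and 13.9, 4.39, 14.1 and 11.9 CPM in FAPi mice. The groups of Hes6 did not overlap (log2 difference -1.25 ± 0.52, unadjusted p = 0.0351, adjusted p = 0.574, edgeR). Myc, a growth regulator that Notch activates in T cells, had 74.8, 86.9 and 103 CPM in DPBS and 142, 110, 231 and 115 CPM in FAPi mice. All FAPi values of Myc lay above the DPBS values, narrowly at FAPi replicate 2 (log2 difference 0.76 ± 0.33, unadjusted p = 0.0423, adjusted p = 0.583, edgeR). Without FAPi replicate 3 the difference of Myc was 0.48.

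**Figure D4:**
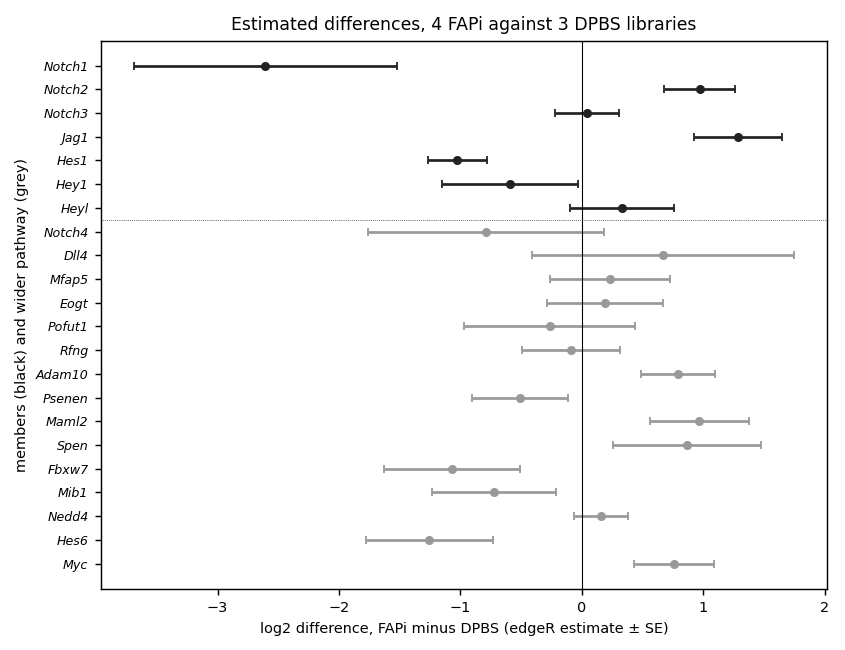
Log2 differences, FAPi minus DPBS, with SE from edgeR for the 7 tested genes (black, above the dotted line) and 15 genes of the wider pathway (grey). Hes1 (-1.02 ± 0.24), Jag1 (1.28 ± 0.36) and Notch2 (0.97 ± 0.29) lie furthest from 0 relative to their SE, and no gene passed the adjusted threshold.

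Notch2, with the highest mean level per length, was compared with 9559 other tested genes for likeness over the 7 libraries. The measure was the root mean square difference of log2 CPM after each gene's mean was subtracted. The closest were Pam (0.0683 log2 units), which encodes an enzyme that amidates secreted peptides, Nipsnap2 (0.106) and Kdelr2 (0.129), a receptor that returns proteins to the endoplasmic reticulum. Pam had 1053, 1220 and 1446 CPM in DPBS and 1445, 3578, 2459 and 2414 CPM in FAPi mice. All 3 were highest in FAPi replicate 2, as Notch2 was, which follows from their choice by likeness over the same 7 libraries.

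**Figure D5:**
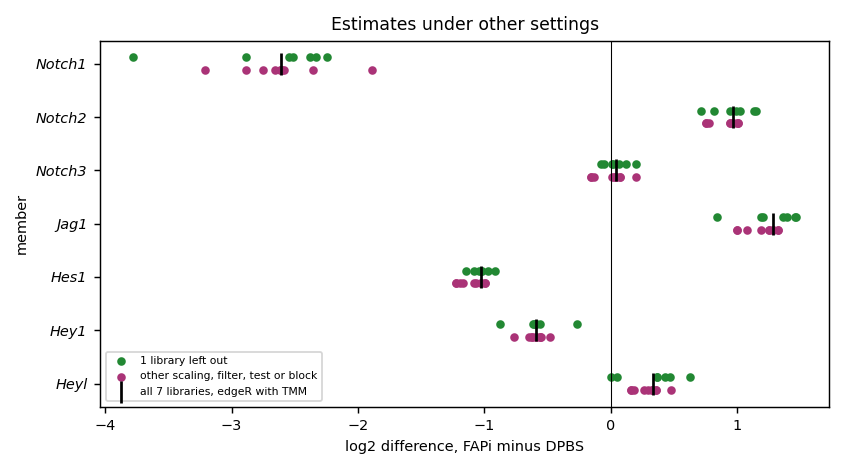
Log2 differences of the 7 tested genes with all 7 libraries (black ticks), with 1 library left out (green) and under other scalings, filters, tests and the replicate block (purple). Hes1 stays between -1.22 and -0.91 and Notch2 between 0.72 and 1.15, while Notch3 lies on either side of 0.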

How the data were processed

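The authors deposited raw counts per gene and CPM values for each library. The submitters' processing notes list STAR and HTSeq with mm10 but no versions. For annotation and strand setting nothing is stated. The deposited CPM equal the count scaled by the library total, to within 4.55e-05 CPM. Lines at the end are repeated in 6 of 7 CPM tables, where each gene's first entry was kept. Of 53801 gene IDs, 53706 matched GENCODE M21 (mm10), which gave symbols, coordinates and exon lengths.

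The test on the counts was edgeR's quasi-likelihood test, version 4.0.16 under R 4.3.3 (filterByExpr with minimum count 10, TMM factors, robust glmQLFit and glmQLFTest, SE as the absolute log2 difference over the square root of F). Benjamini-Hochberg adjustment ran over 12930 genes and calls needed an adjusted p under 0.05. Log2 differences are FAPi minus DPBS. CPM in the text are TMM-normalised. The functions were tested on counts simulated for 4 FAPi and 3 DPBS libraries, with 50 genes changed at each fold. The edgeR test recovered 2% of the genes changed 2-fold, 16% at 4-fold, 52% at 8-fold and 64% at 16-fold, with 4 false calls. The changed genes were drawn at random from all genes tested, so these shares are averages and not specific to the pathway genes. In the simulation a 2-fold difference was thus rarely called, and a missing call does not show that a gene was unchanged. Depth was 7492570 to 10569690 counts per library, and floors cover counting error only. No pair of libraries within a group agreed within sampling noise.

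The genes and lists were chosen with earlier results of these data known. Named were all 10 genes; the 2 wider genes of smallest p and the most abundant one per role group; the 2 most abundant markers per list, most of them given only within sums, with the gate genes Pdgfra, Ptprc and Tek; and the 3 genes most like the leading one. Ly6g, Mmp8, Ltf, Retnlg and Rbpj were added after their values were seen. So were the wider genes named for having no counts (Dll3, Dlk1, Hes2, Hes3, Hes5 and Helt). Alternatives were DESeq2 1.42.0, limma 3.58.1 (voom, and deposited CPM with pseudocounts of 1 and 0.5), other scalings and filters, a replicate block and leaving out each library.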

Additional observations from a re-analysis of the deposited data

Results flagged for a closer look

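Within the FAPi group, 25 genes with tested counts (7 of the 10 pathway genes, 15 wider genes and the 3 genes like Notch2) were screened for 1 library standing apart. The measure was the distance between the extreme library and the next one, as a share of the group's whole spread. Values for 2 genes were marked, and chance marks about 1 in 20, or 1.25 of 25. In FAPi replicate 2 Adam10 had 717 CPM, while the other 3 libraries had 382 to 409 CPM (share 0.918). Eogt had 21.3 CPM in the same library and 12.98 to 14.3 CPM in the others (share 0.841). The groups of 3 DPBS libraries were too small for this check.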

How the results depend on the processing

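None of the 10 genes and none of the 67 wider genes was called at an adjusted p under 0.05 in any alternative run. Over all genes the edgeR counts of 0 higher and 0 lower became 84 and 51 with DESeq2, 5 and 1 with no low-count filter, 1 and 0 with voom weights, 4 and 2 with limma on log2 of the CPM tables (either pseudocount), and 1 and 0 at a threshold of 0.1. With single libraries omitted the counts lay between 0 and 2 (higher) and between 0 and 1 (lower), and omitting DPBS replicate 3 gave the calls. Same-numbered libraries did not deviate together (correlations -0.0084, -0.02 and -0.05), and 0 of 3 DPBS libraries correlated best with their own number, so no pairing was assumed. A replicate block left 0 called and 718 genes with an unadjusted p under 0.05, against 1053 without it.

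Library totals in place of TMM factors moved the median of all genes to -0.16 and raised the count of higher pathway genes with separate groups from 1 to 2 (Notch2 joining Jag1). Relative to that median, Notch2 differed by 0.94, Jag1 by 1.24 and Hes1 by -1.03 on the log2 scale. Of 119 estimates for the 7 tested genes under alternatives, 114 kept their direction, and the 5 that turned were all of Notch3. They were -0.13 with library totals, -0.16 with limma at either pseudocount (-0.158 and -0.159), -0.05 without DPBS replicate 3 and -0.074 without FAPi replicate 1. Over all left-out fits Notch3 ranged from -0.074 to 0.21. Of 252 for the wider genes named, 16 turned. Mfap5 was -0.093 and -0.10 with limma and -0.12 with the block. Eogt was -0.0031 with library totals, -0.0096 and -0.010 with limma, and -0.011 to 0.28 with 1 library left out. Nedd4 was -0.0081 with library totals and -0.0051 with limma. Pofut1 was 0.29 with the block. With 1 library left out, Pofut1 ranged from -0.67 to 0.60, Rfng from -0.33 to 0.26 and Notch4 from -1.30 to 0.094. The cause was not tested. Jag2, Dll1, Nrarp and, in FAPi mice, Notch1 are limited by counts near the floor.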
